A study of Homo sapiens with 5 samples.

Results

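The 42 genes described here encode subunits of the SWI/SNF, CHD and INO80 families of chromatin remodellers, together with the related ATPases HELLS and ATRX. They were taken as a list of gene symbols, matched through the GENCODE 29 annotation to the Ensembl identifiers of the count tables, and all 42 were found among the 31029 genes listed for both cell lines. The list holds 26 SWI/SNF subunits, 9 CHD ATPases, 5 proteins of the INO80 family complexes and 2 other ATPases of the SNF2 family. All 42 also passed the filter on low counts, which left 17918 genes.

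The study asked how BPTF, the largest subunit of the NURF remodeller, acts with the transcription factor MITF in cells of the melanocyte lineage, where MITF also recruits the SWI/SNF ATPase BRG1 (SMARCA4). Total RNA was sequenced after depletion of ribosomal RNA in 2 libraries of 501Mel, a human melanoma line, and 3 libraries of Hermes 3A, an immortalised human melanocyte line. Every library came from cells carrying a lentiviral shRNA against BPTF and selected with puromycin. 501Mel cells were grown in RPMI medium with foetal calf serum, and the medium of Hermes 3A cells also held a phorbol ester, cholera toxin, stem cell factor and endothelin. Each group is therefore 1 line in its own medium, and line, malignancy and medium cannot be told apart. Which of the BPTF shRNAs the libraries carried is not given in the sources used here. Libraries of control shRNA cells were not analysed here, so the values compare the lines under BPTF knockdown and give no effect of the knockdown. BPTF itself, at 63.5 and 56.9 CPM in 501Mel and 48.6 to 54.8 CPM in Hermes 3A cells, checks no label without such a control.

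Chromatin remodellers use the energy of ATP to slide, evict or exchange nucleosomes through an ATPase of the SNF2 type, which in many of them sits inside a larger set of subunits. SWI/SNF complexes are built from alternative paralogues at many positions, so that a cell type can be described by which paralogue it uses, and mutations of their genes are common in cancer. CHD ATPases carry chromodomains and include the motor of the NuRD corepressor, whereas INO80, SRCAP and EP400 complexes exchange or reposition nucleosomes that hold the histone variant H2A.Z.

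The libraries held 43032311 and 37856675 counts in 501Mel and 30073071 to 41653084 counts in Hermes 3A cells, so that 3 counts were worth 0.0697 to 0.0998 CPM (counts scaled to a total common to all libraries). Values below are CPM on library totals scaled by TMM factors, listed by replicate number. Differences are log2(501Mel / Hermes 3A) from the edgeR quasi-likelihood test, with a standard error and a p-value adjusted by Benjamini-Hochberg over all 17918 genes. The count tables of the lines do not list the same genes, with 6230 genes listed for 501Mel only and 3004 for Hermes 3A only, although the shared genes held at least 99.3% of each library's counts. The highest mean count of a gene listed for 501Mel only was 28997, and whether the lines were counted with the same annotation is not given in the sources used here. A difference in annotation cannot be told apart from a difference between the lines. Hermes 3A replicate 1 stood apart from the other Hermes 3A libraries, with a chi-square per gene of 96.1 and 101 against replicates 2 and 3, which differed by 21.5 from each other. Without it 9282 genes were called in place of 8664, and of the members 17 were higher and 6 lower. The 2 libraries of 501Mel also differed widely from each other, with a chi-square per gene of 72.9. The lineage genes MITF and SOX10 were abundant in all 5 libraries (677 to 840.1 and 308 to 329 CPM in 501Mel, 662 to 686 and 500.4 to 519 CPM in Hermes 3A cells). PMEL, MLANA, TYR and SOX10 were lower in 501Mel and DCT was higher, whereas MITF and TYRP1 did not pass the test. Of the other markers, both keratinocyte genes tested (KRT10 and TP63) and 1 of 5 fibroblast genes (COL1A2) were lower in 501Mel, and the 1 haematopoietic gene tested (CD68) was higher. KRT14, DSG3 and DCN stood at or below 0.312 CPM in every library, and PTPRC and CD3E at or below 0.0448 CPM. COL1A2 was between 73.7 and 189 CPM in Hermes 3A and at most 0.104 CPM in 501Mel cells, and the macrophage gene CD68 was at 91.8 and 33.9 CPM in 501Mel and at most 0.264 CPM in Hermes 3A cells.

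Of the 42 remodeller genes, 17 (40.5%) were higher in 501Mel, where 24.3% of all tested genes were higher, and 4 (9.52%) were lower, where 24.1% of all genes were lower. The other 21 did not pass the test. With an absolute log2 difference of at least 1 as a further condition, 11 members were higher (17.2% of all genes) and 1 was lower (17.1% of all genes). The median log2 difference was 0.39 over the members and 0.02 over all genes tested. The 2 groups of libraries did not overlap for 26 members that were higher in 501Mel and 4 that were lower, against 35.7% and 34.0% of all genes (69.7% in either direction). Their summed level was 4498 and 4217 CPM in the 501Mel libraries and between 2928 and 3087 CPM in the Hermes 3A libraries. The number called lower rested on single libraries, being 2 without 501Mel replicate 1, 501Mel replicate 2 or Hermes 3A replicate 2, and 6 without Hermes 3A replicate 1.

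**Figure D1:**
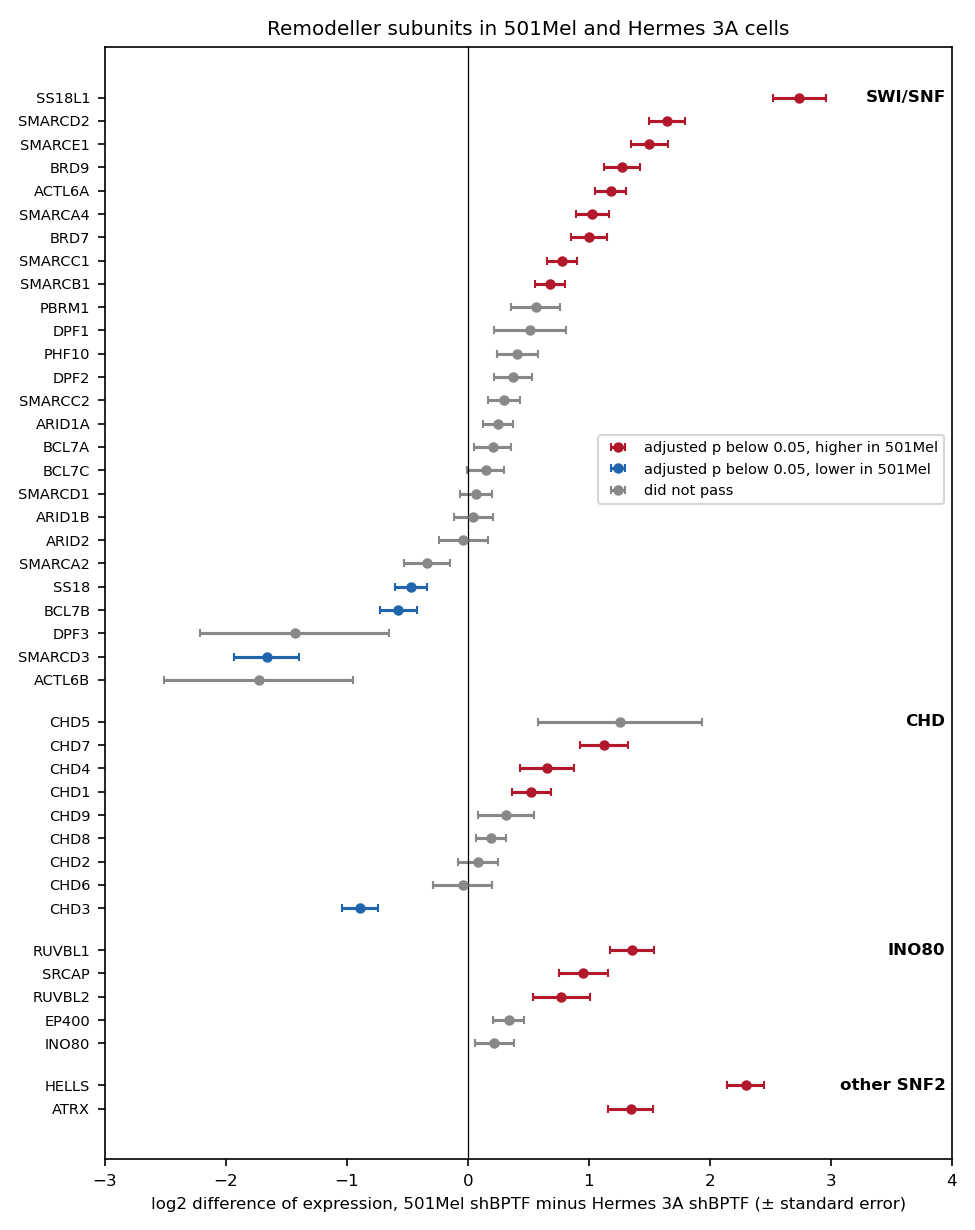
Log2 difference of expression between 501Mel shBPTF (2 libraries) and Hermes 3A shBPTF cells (3 libraries) for the 42 members, grouped by family and ordered by size, with bars of ± 1 standard error from the edgeR fit. Red points are the 17 genes that were higher in 501Mel and blue points the 4 that were lower at an adjusted p below 0.05, and SS18L1 lies farthest to the right at 2.74.

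The catalytic subunits of SWI/SNF are SMARCA4 (BRG1) and SMARCA2 (BRM), and a complex holds one or the other. SMARCA4 (ENSG00000127616, chromosome 19 of GRCh38 from 10960825 to 11079426) was at 217 and 184 CPM in 501Mel and at 104, 98.1 and 92.5 CPM in Hermes 3A cells. Both 501Mel libraries lay above all 3 Hermes 3A libraries, and the log2 difference was 1.03 ± 0.14 (SE; adjusted p = 0.0011), a 2.04-fold higher level. The 120 tested genes within 2 Mb of SMARCA4 had a median log2 difference of -0.54, on the other side of 0. Such medians fell on both sides of 0 for the other members called higher. They were -0.67 for SMARCC1, -0.63 for CHD4, -0.59 for RUVBL2, -0.09 for RUVBL1 and -0.03 for SMARCE1. Above 0 were CHD1 (0.03), BRD7 (0.09), SMARCD2 (0.24), ATRX (0.27), SRCAP (0.34), CHD7 (0.38) and SMARCB1 (0.46). Those of SS18L1, HELLS, ACTL6A and BRD9, given below, were also above 0. For the members called lower the medians were -0.46 for BCL7B, -0.41 for SMARCD3, -0.36 for CHD3 and 0.20 for SS18. The part of neighbouring genes in these calls was not tested. SMARCA2 (chromosome 9 from 1980290 to 2193624) was at 44.9 and 59.6 CPM in 501Mel and at 55.4, 69.1 and 73.0 CPM in Hermes 3A cells. The groups overlapped, and the log2 difference of -0.33 ± 0.19 did not pass the test (adjusted p = 0.18).

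The counts of SMARCA4 exceeded those of SMARCA2 by 4.82 and 3.09 times in the 501Mel libraries and by 1.87, 1.42 and 1.27 times in the Hermes 3A libraries. The ratio was therefore higher in both 501Mel libraries, on average by 2.58-fold. With 2 libraries against 3, the exact two-sided permutation test cannot give less than p = 0.2, which is the value found here and for each of the other ratios whose groups did not overlap (adjusted p = 0.311 over 14 paralogue sets). Which ATPase has the higher level per kb depended on the gene length used, since SMARCA4 made up 78.5% to 85.0% of the pair in 501Mel with the length of all exons together and 38.5% to 49.4% with the median transcript length. Hermes 3A libraries stood below 501Mel libraries on either scale, at 59.9% to 68.8% and 20.4% to 27.5%. With the principal transcript length SMARCA4 led in every library, at 75.8% to 83.0% in 501Mel and 56.2% to 65.5% in Hermes 3A cells.

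In CpG content the promoter windows of these 2 ATPases lie at opposite ends of those matched for the members, and they are shown for that reason. Sequences are from RefSeq on GRCh38.p14, run from 250 bases before to 50 bases after the annotated start, and were matched for 34 of the 42 members. For each gene only the RefSeq start nearest the start of its principal transcript was used, and windows at its other starts are not described. The distance between these starts was 10643 bases for EP400, 5445 for DPF1 and 3983 for CHD3. It was 1046 for SMARCE1, 1025 for CHD4 and at most 883 bases for the other members matched. The SMARCA2 start used, at base 2021945, lies inside the gene, which is annotated from base 1980290. They are written 5′ to 3′ in lower case with each CpG in capitals.
SMARCA4 (chr19:10960780-10961079, plus strand): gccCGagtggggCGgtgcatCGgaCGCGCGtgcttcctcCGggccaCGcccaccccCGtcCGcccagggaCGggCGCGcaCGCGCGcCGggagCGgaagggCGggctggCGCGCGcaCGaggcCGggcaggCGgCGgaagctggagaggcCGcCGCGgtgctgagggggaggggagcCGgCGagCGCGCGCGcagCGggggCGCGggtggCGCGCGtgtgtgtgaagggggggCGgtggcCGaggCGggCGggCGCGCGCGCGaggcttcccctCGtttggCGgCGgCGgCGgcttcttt
SMARCA2 (chr9:2021695-2021994, plus strand): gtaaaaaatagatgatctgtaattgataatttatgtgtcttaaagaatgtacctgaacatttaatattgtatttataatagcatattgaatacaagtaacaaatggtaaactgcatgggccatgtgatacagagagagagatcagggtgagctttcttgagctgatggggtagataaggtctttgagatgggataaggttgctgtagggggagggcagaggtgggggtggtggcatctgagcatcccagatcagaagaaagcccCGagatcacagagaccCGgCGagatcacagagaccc
The SMARCA4 window held 55 CpG and was 81.3% G or C, the most CpG among the 34 members matched. The SMARCA2 window held 3 CpG and was 43.0% G or C, a number of CpG that among these members only the CHD2 window shared. The median was 31 CpG over the 34 members and 14 over all 35116 promoters of the table.

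The core and scaffold subunits hold the complex together and 4 of 7 were called higher in 501Mel and 1 lower, where 24.3% and 24.1% of all genes were. SMARCB1 (SNF5, INI1), which contacts the nucleosome's acidic patch, was at 127 and 134 CPM in 501Mel and between 79.9 and 84.0 CPM in Hermes 3A cells (log2 0.68 ± 0.12, adjusted p = 0.0038). SMARCC1 (BAF155), a scaffold, was at 237 and 245 CPM against 137 to 143 CPM (log2 0.78 ± 0.12, adjusted p = 0.0023). In both genes the groups of libraries were apart by far more than the spread within them. Its paralogue SMARCC2 (BAF170) was at 108 and 94.2 CPM in 501Mel and 78.6 to 86.3 CPM in Hermes 3A cells and did not pass the test (log2 0.30 ± 0.13, adjusted p = 0.10). SMARCE1 (BAF57, ENSG00000073584), an HMG-box subunit, was at 104 and 97.5 CPM in 501Mel and at 31.7, 40.7 and 34.6 CPM in Hermes 3A cells. The 501Mel libraries were both higher, and SMARCE1 differed by 1.50 ± 0.15 on the log2 scale (adjusted p = 0.00037).

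The 3 SMARCD (BAF60) paralogues, which link the complex to transcription factors, moved in different directions. SMARCD2 (chromosome 17 from 63832081 to 63843065) was at 197 and 154 CPM in 501Mel and at 57.4, 56.9 and 53.7 CPM in Hermes 3A cells. It was thus higher in both 501Mel libraries, by 1.65 ± 0.15 on the log2 scale (adjusted p = 0.00023). SMARCD3 (chromosome 7 from 151238764 to 151277896), which is known from the heart and muscle forms of the complex, was at 17.4 and 9.92 CPM in 501Mel and at 41.5, 48.4 and 39.9 CPM in Hermes 3A cells. SMARCD3 was lower in both 501Mel libraries, by a log2 difference of -1.66 ± 0.27 (adjusted p = 0.0025), and was the only member that was both called and lower by at least 2-fold. SMARCD1 was at 170.0 and 144 CPM in 501Mel and at 147, 153 and 149.8 CPM in Hermes 3A cells, with overlapping groups and a log2 difference of 0.07 ± 0.14 (adjusted p = 0.70). The count ratio of SMARCD1 to SMARCD2 was 0.865 and 0.934 in 501Mel and 2.56, 2.69 and 2.79 in Hermes 3A cells, on average 2.98-fold lower in 501Mel. Per kb of all exons, SMARCD2 led the set in both 501Mel libraries (59.1% and 58.0%) and SMARCD1 in the 3 Hermes 3A libraries (54.8% to 56.9%). With the median transcript length SMARCD1 led in every library. With the principal transcript length SMARCD2 led in both 501Mel libraries (56.8% and 56.2%) and SMARCD1 in all Hermes 3A libraries.

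**Figure D2:**
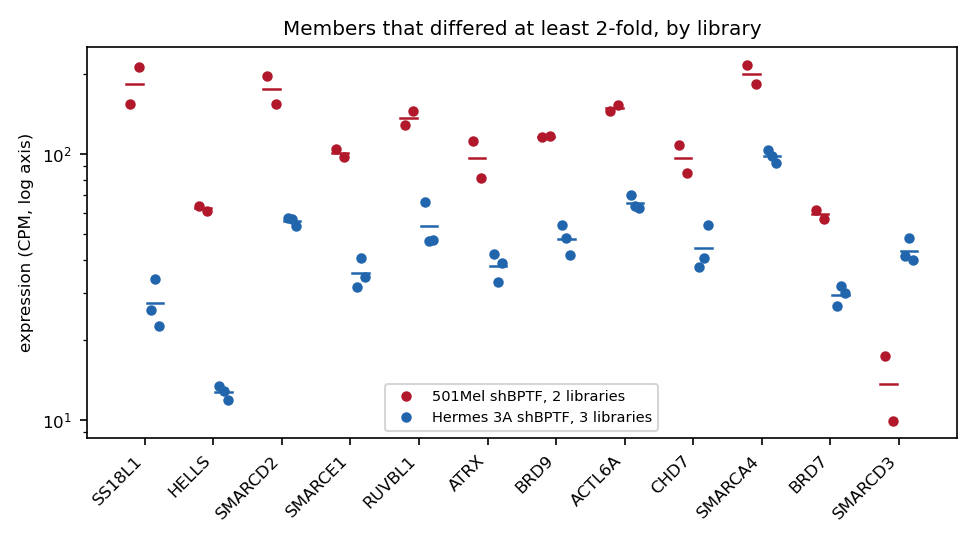
Expression in CPM on a log axis of the 12 members that differed by at least 2-fold with an adjusted p below 0.05, by library, with a line at each group's mean. In 11 genes both 501Mel libraries (red) lie above all Hermes 3A libraries (blue), and in SMARCD3 at the far right both lie below them.

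SWI/SNF exists in canonical BAF, PBAF and non-canonical BAF forms, which differ in their defining subunits. None of the ARID subunits passed the test. ARID1A and ARID1B, of canonical BAF, had log2 differences of 0.25 ± 0.12 (adjusted p = 0.14) and 0.05 ± 0.16 (adjusted p = 0.83), and ARID2, of PBAF, one of -0.04 ± 0.20 (adjusted p = 0.89). The ARID1A groups did not overlap, at 133 and 128 CPM in 501Mel against 104 to 113 CPM, whereas those of ARID1B and ARID2 did. PBRM1, the polybromo subunit of PBAF, was at 103 and 160.3 CPM in 501Mel and between 79.8 and 97.9 CPM in Hermes 3A cells, a log2 difference of 0.56 ± 0.20 (adjusted p = 0.056) that passed in 4 of 12 alternative analyses, one of them without 501Mel replicate 1 (log2 0.83, adjusted p = 0.016). PHF10, the PHD subunit of PBAF, had a log2 difference of 0.41 ± 0.17 (adjusted p = 0.085).

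The bromodomain subunits BRD9 and BRD7 were both higher in 501Mel. BRD9, which defines the non-canonical BAF complex, was at 116 and 117 CPM in 501Mel and at 54.2, 48.4 and 41.7 CPM in Hermes 3A cells (chromosome 5 from 850291 to 892824). The groups were apart, with a log2 difference of 1.27 ± 0.15 (adjusted p = 0.00067). The 30 tested genes within 2 Mb of BRD9 had a median log2 difference of 0.92, and the part of this in the BRD9 result was not tested. BRD7 of PBAF was at 61.5 and 56.9 CPM in 501Mel and 26.8, 31.8 and 29.9 CPM in Hermes 3A cells (log2 1.01 ± 0.15, adjusted p = 0.0017). Other genes of GENCODE 29, among them ADCY7 on the opposite strand, overlap 42.4% of the BRD7 exon bases, and whether the counting used strand is not given in the sources used here. Such overlap was 19.8% for SMARCE1, 17.7% for SMARCB1, 13.8% for SMARCD3 and 10.4% for RUVBL1. It is given below for CHD4 and SRCAP, and was at most 6.0% for the other called members. The ratio of BRD9 to BRD7 counts, 1.88 and 2.05 in 501Mel and 1.39 to 2.02 in Hermes 3A cells, overlapped between the lines.

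Among the DPF subunits, which read acetylated histones and change during neuronal differentiation, none passed the test. DPF2, the ubiquitous form, was at 76.4 and 84.1 CPM in 501Mel and between 53.3 and 69.3 CPM in Hermes 3A cells (log2 0.37 ± 0.16, adjusted p = 0.085). DPF2 passed without Hermes 3A replicate 1 (adjusted p = 0.041) and with total counts in place of TMM (adjusted p = 0.042). DPF1 stood between 3.40 and 5.40 CPM in all libraries (log2 0.51 ± 0.30, adjusted p = 0.19). DPF3 had 4 and 9 counts in 501Mel and 6, 27 and 15 counts in Hermes 3A cells, or 0.0896 to 0.649 CPM over the 5 libraries, the lowest level per kb of all members in both lines (log2 -1.43 ± 0.78, adjusted p = 0.17).

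The actin-like subunits form a similar pair. ACTL6A (BAF53a, chromosome 3 from 179562880 to 179588408), the form of dividing cells, was at 145 and 153 CPM in 501Mel and at 70.1, 63.9 and 62.4 CPM in Hermes 3A cells. Its groups were apart, with a log2 difference of 1.18 ± 0.13 (adjusted p = 0.00046), and the 17 tested genes within 2 Mb had a median log2 difference of 0.91. ACTL6B (BAF53b), the form of neurons, had 23 and 15 counts in 501Mel and 14, 82 and 66 counts in Hermes 3A cells. The groups overlapped through Hermes 3A replicate 1, and the log2 difference of -1.73 ± 0.78 did not pass (adjusted p = 0.11). Without that library it was -2.22 (adjusted p = 0.0053), and DPF3 likewise passed without it (log2 -1.87, adjusted p = 0.039). ACTL6A exceeded ACTL6B by at least 28.1 times in counts in every library. Of 6 other genes of neurons, STMN2 and TUBB3 were lower in 501Mel and 4 did not pass. SNAP25 and SYP were also lowest in Hermes 3A replicate 1, at 13.7 and 28.3 CPM against 28.3 to 28.6 and 70.5 to 75.0 CPM in the other Hermes 3A libraries.

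The widest difference of the list was in the SS18 pair, which associates with the ATPase module and of which SS18 is the fusion partner of synovial sarcoma. SS18L1 (CREST, ENSG00000184402, chromosome 20 from 62143795 to 62182484), known from calcium-regulated transcription in neurons, was at 154 and 212 CPM in 501Mel and at 25.9, 33.8 and 22.5 CPM in Hermes 3A cells. Both 501Mel libraries lay far above every Hermes 3A library. SS18L1 differed by 2.74 ± 0.22 on the log2 scale, 6.68-fold (adjusted p = 0.00014). SS18 (chromosome 18 from 26016253 to 26091217) went the other way, at 74.0 and 80.0 CPM in 501Mel and 100.4, 107 and 112 CPM in Hermes 3A cells. The SS18 groups did not overlap and the log2 difference was -0.47 ± 0.13 (adjusted p = 0.023), but the call was lost with the replicate number as a block (adjusted p = 0.085) and without 501Mel replicate 1, 501Mel replicate 2, Hermes 3A replicate 2 or Hermes 3A replicate 3 (adjusted p from 0.057 to 0.11).

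SS18L1 had 2.09 and 2.65 times the counts of SS18 in 501Mel and 0.258, 0.317 and 0.20 times those of SS18 in Hermes 3A cells. The log2 ratio differed by 3.21 between the lines, 9.25-fold, and by 3.04 to 3.38 when a library was left out. Per kb of all exons SS18L1 made up 71.6% and 76.2% of the pair in 501Mel and 19.4% to 27.7% in Hermes 3A cells. SS18L1 led in 501Mel and SS18 in Hermes 3A cells under all 3 measures of gene length tried, the third being the principal transcript, and this was the only one of the 14 paralogue sets in which the leading member differed between the lines under all 3. The 53 tested genes within 2 Mb of SS18L1 had a median log2 difference of 0.40. The promoters of the pair, shown with each CpG in capitals because its members moved apart, were both rich in CpG.
SS18L1 (chr20:62143519-62143818, plus strand): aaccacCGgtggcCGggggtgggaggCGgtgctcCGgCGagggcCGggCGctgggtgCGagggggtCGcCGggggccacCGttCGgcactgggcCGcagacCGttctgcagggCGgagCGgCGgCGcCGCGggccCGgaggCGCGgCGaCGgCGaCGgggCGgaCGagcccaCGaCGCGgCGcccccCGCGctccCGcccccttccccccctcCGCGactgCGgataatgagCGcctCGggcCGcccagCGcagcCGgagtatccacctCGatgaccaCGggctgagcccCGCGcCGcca
SS18 (chr18:26090564-26090863, minus strand): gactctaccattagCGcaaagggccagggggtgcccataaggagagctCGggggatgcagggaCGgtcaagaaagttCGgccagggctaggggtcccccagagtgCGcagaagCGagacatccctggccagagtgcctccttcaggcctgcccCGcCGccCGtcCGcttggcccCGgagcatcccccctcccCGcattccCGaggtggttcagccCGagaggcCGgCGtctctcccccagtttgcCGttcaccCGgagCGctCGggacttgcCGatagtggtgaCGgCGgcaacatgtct
The SS18L1 window held 49 CpG at 80.0% G or C, and the SS18 window 23 CpG at 67.0% G or C.

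**Figure D3:**
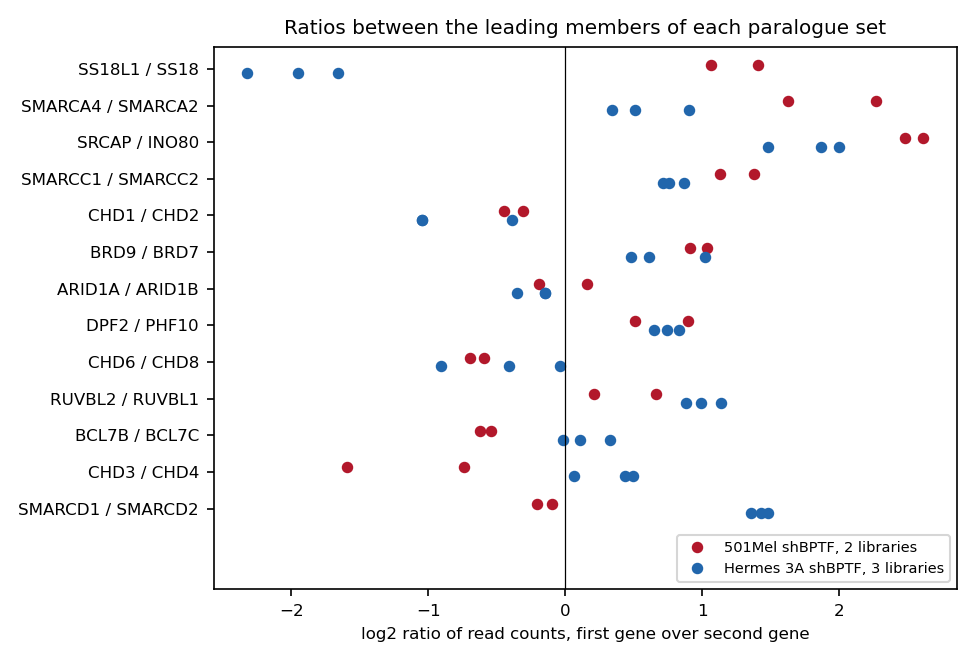
Log2 ratio of read counts between the leading members of the paralogue sets, one point per library, red for 501Mel shBPTF and blue for Hermes 3A shBPTF cells. The ratio of ACTL6A to ACTL6B, above 4.81 in every library, is not drawn. SS18L1 over SS18, at the top, lies at 1.06 or above in 501Mel and between -2.32 and -1.66 in Hermes 3A cells, on opposite sides of 0.

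The BCL7 proteins are small subunits bound to the ATPase. BCL7B was at 25.0 and 25.9 CPM in 501Mel and between 35.3 and 40.0 CPM in Hermes 3A cells (log2 -0.57 ± 0.15, adjusted p = 0.019). The groups did not overlap, but the call was lost without either 501Mel library or without Hermes 3A replicate 2 (adjusted p from 0.061 to 0.078). BCL7A and BCL7C did not pass, with log2 differences of 0.21 ± 0.15 (adjusted p = 0.29) and 0.15 ± 0.15 (adjusted p = 0.45). The 3 together came to 115 and 127 CPM in 501Mel and between 118 and 127 CPM in Hermes 3A cells.

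CHD3 and CHD4 are the alternative ATPases of NuRD and were also called in opposite directions. CHD3 (chromosome 17 from 7884806 to 7912760) was at 116 and 124 CPM in 501Mel and at 220.5, 202 and 245 CPM in Hermes 3A cells. CHD3 was lower in both 501Mel libraries (log2 -0.89 ± 0.15, adjusted p = 0.0027). CHD4 was at 349.9 and 207 CPM in 501Mel and at 163, 193 and 174 CPM in Hermes 3A cells, with a log2 difference of 0.66 ± 0.23 (adjusted p = 0.046). The 501Mel libraries were apart from each other by more than the Hermes 3A libraries, and without 501Mel replicate 1 the CHD4 difference was 0.22 (adjusted p = 0.38). It was also lost without any of the Hermes 3A libraries (adjusted p from 0.087 to 0.13) and with the replicate block (adjusted p = 0.096), and other annotated genes overlap 53.5% of the CHD4 exon bases. The ratio of CHD3 to CHD4 counts was 0.332 and 0.599 in 501Mel and 1.35, 1.05 and 1.41 in Hermes 3A cells, 2.82-fold lower in 501Mel. CHD5, a form of neurons, had 136 and 48 counts in 501Mel and 12, 60 and 28 counts in Hermes 3A cells and did not pass (log2 1.26 ± 0.68, adjusted p = 0.16).

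CHD1 and CHD2 bind active genes. CHD1 was at 112 and 100.5 CPM in 501Mel and at 86.5, 65.9 and 69.1 CPM in Hermes 3A cells (log2 0.52 ± 0.16, adjusted p = 0.031). The groups did not overlap, but the call was lost with the replicate block (adjusted p = 0.060) and in 4 of the 5 fits that left out a library, all but that without Hermes 3A replicate 1 (adjusted p from 0.070 to 0.16). CHD2 was at 153 and 124 CPM in 501Mel and at 114, 136 and 143 CPM in Hermes 3A cells, overlapping (log2 0.08 ± 0.16, adjusted p = 0.70).

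CHD7, the gene of CHARGE syndrome and a remodeller of neural crest enhancers, was the CHD gene with the widest called difference. It was at 108 and 84.7 CPM in 501Mel and at 37.7, 40.6 and 54.3 CPM in Hermes 3A cells (chromosome 8 from 60678778 to 60868028). Both 501Mel libraries were higher, by a log2 difference of 1.13 ± 0.20 (adjusted p = 0.0035), and the call held in all 12 alternative analyses. CHD6 was at 98.4 and 84.1 CPM in 501Mel and at 67.8, 92.6 and 122 CPM in Hermes 3A cells, a log2 difference of -0.04 ± 0.24 (adjusted p = 0.90). CHD8 was at 149 and 136 CPM in 501Mel and at 127, 123 and 125 CPM in Hermes 3A cells (log2 0.19 ± 0.12, adjusted p = 0.24). CHD9 was at 87.1 and 63.4 CPM in 501Mel and at 46.8, 59.9 and 74.7 CPM in Hermes 3A cells (log2 0.32 ± 0.23, adjusted p = 0.29). Of these 3, only the CHD8 groups did not overlap.

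In the INO80 family 3 of 5 members were called higher and none lower, where 24.3% and 24.1% of all genes were, and 1 of the 3 calls (RUVBL2) was lost when single libraries were left out. RUVBL1 and RUVBL2 are AAA+ ATPases that form a ring shared by the INO80, SRCAP and TIP60 complexes. RUVBL1 (chromosome 3 from 128064778 to 128153914) was at 128 and 146 CPM in 501Mel and at 65.9, 47.0 and 47.3 CPM in Hermes 3A cells, with both 501Mel libraries higher (log2 1.36 ± 0.18, adjusted p = 0.0012). RUVBL2 was at 202 and 168 CPM in 501Mel and at 144, 86.6 and 94.1 CPM in Hermes 3A cells, Hermes 3A replicate 1 lying close to the 501Mel libraries (log2 0.77 ± 0.23, adjusted p = 0.030). The RUVBL2 call was lost without 501Mel replicate 1, 501Mel replicate 2, Hermes 3A replicate 2 or Hermes 3A replicate 3 (adjusted p from 0.058 to 0.15). RUVBL2 had the highest level per kb of all exons among the members in both lines, 50.5 CPM per kb in 501Mel and 29.5 CPM per kb in Hermes 3A cells. RUVBL2 had 1.58 and 1.15 times the counts of RUVBL1 in 501Mel and 2.19, 1.84 and 1.99 times in Hermes 3A cells, so that the counts of the ring's partners were closer to each other in 501Mel.

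SRCAP, the ATPase that deposits H2A.Z, was at 245 and 221 CPM in 501Mel and at 89.8, 139 and 132 CPM in Hermes 3A cells, with both 501Mel libraries higher (log2 0.96 ± 0.20, adjusted p = 0.0074). Other genes of GENCODE 29 overlap 76.0% of the SRCAP exon bases. INO80 was at 44.0 and 36.2 CPM in 501Mel and at 32.2, 34.8 and 36.2 CPM in Hermes 3A cells, touching at one end (log2 0.22 ± 0.16, adjusted p = 0.29). EP400 was at 95.4 and 102 CPM in 501Mel and at 80.1, 75.5 and 78.6 CPM in Hermes 3A cells, where the groups were apart and the test was just missed (log2 0.34 ± 0.12, adjusted p = 0.058). EP400 passed with upper-quartile factors (adjusted p = 0.043) or total counts (adjusted p = 0.026) in place of TMM.

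HELLS (LSH), which with CDCA7 remodels chromatin at repeats and supports DNA methylation, was the member with the second largest difference. It was at 63.9 and 61.2 CPM in 501Mel and at 13.5, 12.8 and 11.9 CPM in Hermes 3A cells (ENSG00000119969, chromosome 10 from 94501434 to 94613905). The libraries of each line lay close together, and the log2 difference was 2.30 ± 0.15, or 4.92-fold (adjusted p = 7.1e-05). Its partner CDCA7 was at 98.3 and 55.8 CPM in 501Mel and at 13.2 to 13.8 CPM in Hermes 3A cells (log2 2.52 ± 0.24, adjusted p = 0.00029). All 10 genes of a proliferation list were higher in 501Mel, with a median log2 difference of 3.18 and a summed level of 2072 and 1689 CPM in 501Mel against 301 to 441 CPM in Hermes 3A cells. Within Hermes 3A cells the proliferation genes varied to different extents, from 32.8, 4.90 and 12.1 CPM for CDK1 to 149.5, 172 and 179 CPM for PCNA. The part of proliferation in the HELLS result was not tested. The 26 tested genes within 2 Mb had a median log2 difference of 0.69.

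The HELLS promoter is shown because, alone among the 34 members with a promoter, it held both of the E2F-type motifs searched. These motifs, TTTCCCGC and TTTGGCGC, were searched on both strands and stand in capitals, the second as its reverse complement.
HELLS (chr10:94545538-94545837, plus strand): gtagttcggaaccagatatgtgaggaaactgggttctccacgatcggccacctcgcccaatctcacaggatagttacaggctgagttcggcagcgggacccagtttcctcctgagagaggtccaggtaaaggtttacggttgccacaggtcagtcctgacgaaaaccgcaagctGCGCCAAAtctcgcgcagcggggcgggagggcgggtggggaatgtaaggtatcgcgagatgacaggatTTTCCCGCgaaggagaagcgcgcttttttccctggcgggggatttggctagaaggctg
TTTCCCGC was found in 2 of the 34 members with a promoter, HELLS and BRD7 (1.63% of all promoters), and TTTGGCGC in HELLS only (0.652% of all promoters). Of the E-box forms that MITF can bind, searched on both strands, CATGTG was found in SMARCA2 only (11.1% of all promoters) and CACGTG in PBRM1, BCL7B and CHD9 (7.26%). The cyclic AMP response element TGACGTCA was found in none of the 34 (1.85% of all promoters). None of the 5 motifs overlaps another in these windows, and a match of letters is not a measured binding site.

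ATRX, which deposits histone H3.3 at repeats and telomeres together with DAXX, was at 112 and 81.3 CPM in 501Mel and at 42, 33.1 and 38.8 CPM in Hermes 3A cells. Both 501Mel libraries were higher, by 1.35 ± 0.18 on the log2 scale (adjusted p = 0.0012). DAXX was higher as well, at 164.3 and 164.0 CPM against 58.5 to 68.6 CPM (log2 1.38 ± 0.13, adjusted p = 0.00028). The H3.3 genes H3F3A and H3F3B did not pass, and the H2A.Z genes H2AFZ (log2 1.07 ± 0.15, adjusted p = 0.0012) and H2AFV (log2 0.90 ± 0.15, adjusted p = 0.0028) were higher in 501Mel.

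The plot of companion lists shows the other subunits of the same complexes, whose counts stand beside shares of 24.3% higher and 24.1% lower among all genes. Of 12 other NuRD subunits 5 were higher in 501Mel and 3 lower, with a median log2 difference of 0.27. The largest rises were those of the histone chaperones RBBP7 (1.61 ± 0.18, adjusted p = 0.00051) and RBBP4 (0.98 ± 0.14, adjusted p = 0.0016), and the largest falls those of MBD2, which binds methylated DNA (-1.07 ± 0.17, adjusted p = 0.0023), and CDK2AP1 (-0.72 ± 0.17, adjusted p = 0.010). Of 11 other INO80 subunits 3 were higher and 2 lower, close to the shares of all genes (median -0.02), led by the deubiquitinase UCHL5 (1.73 ± 0.19) and ACTR5 (0.84 ± 0.18) among the rises and by TFPT (-0.94 ± 0.19) and ACTR8 (-0.52 ± 0.14) among the falls. Of 5 other SRCAP subunits 2 were higher, YEATS4 (1.57 ± 0.21) and VPS72 (0.97 ± 0.18), and ZNHIT1 was lower (-0.55 ± 0.13), with a median of 0.36. Of 11 other subunits of the TIP60/EP400 complex 5 were higher, led by ING3 (0.97 ± 0.22) and MEAF6 (0.94 ± 0.15), and the acetyltransferase gene KAT5 was lower (-0.54 ± 0.16), with a median of 0.24. Of 3 further SWI/SNF subunits none was higher and BICRA of the non-canonical complex was lower (-0.68 ± 0.19, adjusted p = 0.023).

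Among 12 other ATPases of the SNF2 family 8 were higher in 501Mel and none lower (24.3% and 24.1% of all genes), with a median log2 difference of 0.78. The largest rises were in the recombination factors RAD54L, at 45.3 and 33.5 CPM in 501Mel and 2.83 to 4.08 CPM in Hermes 3A cells (3.57 ± 0.25, adjusted p = 9.1e-05), and RAD54B, at 24.2 and 17.8 CPM against 1.83 to 2.24 CPM (3.35 ± 0.26, adjusted p = 0.00014). In both the libraries of the lines were far apart. Over the 6 lists of other subunits and ATPases together, 23 of 54 genes were higher, 8 were lower (24.3% and 24.1% of all genes) and 23 did not pass, with a median of 0.28 against 0.39 over the members.

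**Figure D4:**
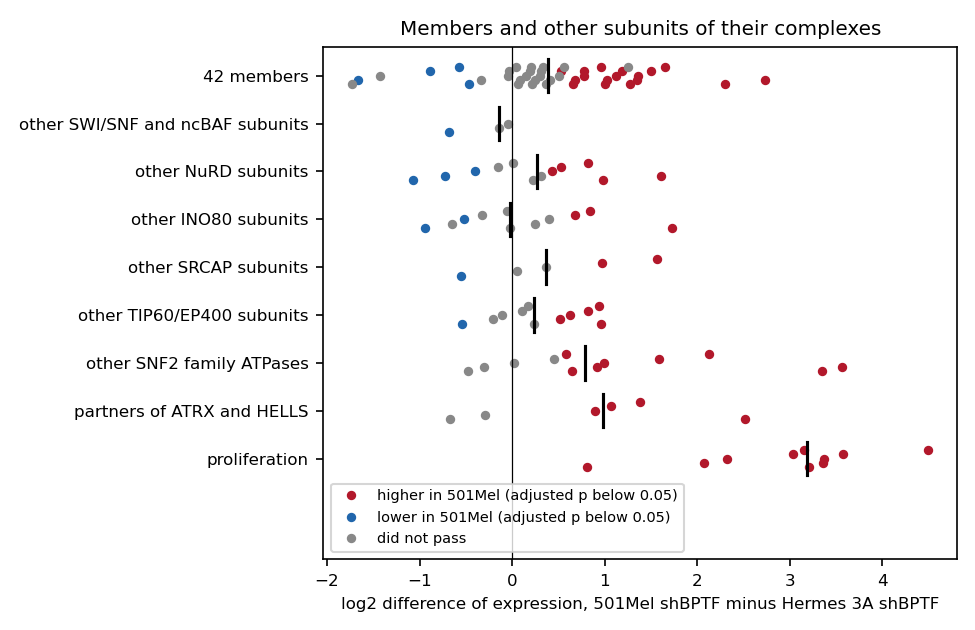
Log2 difference of expression between 501Mel and Hermes 3A shBPTF cells for each member and for the genes of 8 companion lists, with a black line at the median of each list. Medians run from -0.14 for the further SWI/SNF subunits to 3.18 for the proliferation genes, and the 42 members (0.39) are spread on both sides of 0.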

How the data were processed

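RNA-seq data covered 2 shBPTF libraries of 501Mel and 3 of Hermes 3A cells, grouped by the line and replicate number in their labels. The authors deposited whole-number read counts per Ensembl gene, without normalization. The submitters' processing notes name CASAVA 1.8, TopHat 1.4.1, Bowtie 0.12.7 and the build hg19. The counting program, the annotation and the use of strand are not given in the sources used here. Gene names, coordinates and lengths are those of GENCODE 29 on GRCh38, in which 29317 of the 31029 shared genes were found.

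Genes listed for both lines were tested with edgeR 4.0.16 (glmQLFit, glmQLFTest, TMM, filterByExpr) in R 4.3.3, with all 5 libraries and line as the only term. Standard errors are the absolute log2 difference divided by the square root of the quasi-likelihood F. Genes were called at a Benjamini-Hochberg adjusted p below 0.05, and a stricter rule added an absolute log2 difference of at least 1. Exact permutation tests were run in scipy 1.17.1, and the fit was tested on simulated data. The labels do not say whether replicates came from separate cultures, so that p-values measure the spread between these samples, which may be technical. Replicates differed by more than counting noise (chi-square of 21.5 to 100.8 for each gene on average), and each was kept as a sample. A low level in bulk RNA can come from fewer cells or from less RNA per cell, which cannot be told apart. Limits set by 3 counts cover counting error only.

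All members were described, with each library's values for those past the stricter rule, for the ATPases and for the paralogues of the former. From each companion list except that of proliferation genes, the 2 largest called rises and falls were named. The members and lists were chosen with earlier results of these data known. The medians of neighbouring genes, the values of CDK1, PCNA, SNAP25 and SYP and the choice of promoters were added after the values were seen. DESeq2 1.42.0, other scaling factors, no filter, the replicate block and leaving out each library were tried as alternatives. Genes missing from the tables of 1 line (taken as 0) and the principal transcript length were alternatives chosen after seeing the data.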

Additional observations from a re-analysis of the deposited data

How the results depend on the processing

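Over 12 alternatives, 16 of the 21 called members were called in the same direction each time, including all 12 that differed by at least 2-fold. The other 5 (SS18, BCL7B, CHD1, CHD4, RUVBL2) lost the call in at least 1, and 5 members without a call (PBRM1, DPF2, DPF3, ACTL6B, EP400) gained one. The number of genes called was 8664, 8895 with DESeq2 and 6104 to 9282 when a library was left out. The members called higher numbered 14 to 20, and those called lower 2 to 6 when a library was left out. The median of all genes was 0.02, 0.09 with total counts and 0.13 with no filter.

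5 members, none of them called, changed sign. With total counts ARID2 was at 0.032 and CHD6 at 0.016. Without a library SMARCD1 ranged from -0.066 to 0.17, CHD2 from -0.084 to 0.21, ARID1B from -0.12 to 0.17, ARID2 from -0.33 to 0.18, and CHD6 from -0.25 to 0.15. The ratio difference of DPF2 to PHF10 ranged from -0.23 to 0.16 and that of CHD6 to CHD8 from -0.42 to 0.012. The cause was not tested.

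Same-numbered libraries of the lines deviated together only weakly (correlations 0.104 and 0.121 over 2 pairs). The 2 libraries of 501Mel deviate from their mean by equal and opposite amounts, so that these correlations are not separate checks. Whether same-numbered libraries share a batch cannot be told from them. A replicate block left 7496 calls, 16 members being higher and 3 lower, and put CHD6 at 0.20. It ended the calls of SS18, CHD1 and CHD4, gave one to PBRM1 and changed no other member's call. With 1 library left in 501Mel, that library is assumed to vary like the other group. Depth limits DPF3, ACTL6B and CHD5, with counts between 4 and 136, and DPF3 fell under the filter without Hermes 3A replicate 2 or 3.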
